A study of Beta vulgaris with 12 samples.

Results

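The genes of sucrose synthase (SS), sucrose-phosphate synthase (SPS) and sucrose-phosphatase (SPP) were examined in roots of sugar beet (Beta vulgaris, cultivar KWS0143) seedlings under salt. The members are the entries of the expression table whose description names one of these enzymes, and the rule found 8 of 28320 entries. RNA-seq was performed on roots, with 3 biological replicates in each of 4 groups. CK_1 and CK_7 grew in aerated diluted Hoagland solution without added salt and were sampled on days 1 and 7, and S_1 and S_7 received NaCl and Na2SO4 to 300 mM Na+ and were sampled on the same days. The authors describe both salt groups as treated with 300 mM Na+ for the days given. The Na+ concentration was raised gradually over the first days of treatment. Whether the days were counted from the start of this increase is not stated, so the level when S_1 was sampled is not certain.

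Sucrose is the carbon form that beet leaves export and that the root stores in its vacuoles. SS cleaves sucrose reversibly with UDP into UDP-glucose and fructose, and is a main route of sucrose use in sink organs, where UDP-glucose feeds cell wall synthesis and respiration. SPS joins UDP-glucose and fructose phosphate to sucrose phosphate, from which SPP removes the phosphate in an essentially irreversible step, so that both together build sucrose anew. The activity of SS and SPS is also set by protein phosphorylation, which transcript levels do not show.

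Of the 8 entries, 4 were annotated as SS (LOC104901675, SBSS1, LOC104891266 and a joined entry), 2 as SPS (SBSPS1 and LOC104909043) and 2 as SPP (LOC104893197 and LOC104907189). All 8 carry the KEGG pathway starch and sucrose metabolism, which the rule did not use. The joined entry combines the SS-like gene LOC104900089 with its neighbour LOC104900088, which encodes a scarecrow-like transcription factor, so its value is not that of an SS gene alone. Each entry has 1 FPKM value per library (fragments scaled by transcript length and by the reads mapped in the library), combined over 1 to 7 transcripts, and levels of different genes can therefore be compared per length. No member was listed at 0 in any library.

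The FPKM of a library summed to between 382847 and 423530, and no library was a copy of another. FPKM values do not hold the depth, but the spacing of low values of genes with 1 transcript placed the relative depth between 0.907 and 1.27, with the first CK_1 library at 1. Correlations of log2(FPKM + 1) between libraries of the same group were 0.822 to 0.877, across 17146 genes that are not independent replicates. As a check of the tissue, the 14 root markers (Casparian strip and high affinity nitrate transport genes) were summed in each library. They reached 32.2 to 117.5 FPKM on day 1 and 55.6 to 261.6 on day 7. The 18 leaf markers (chlorophyll-binding proteins and the Rubisco small subunit) summed to 37.2 to 264.0 FPKM on day 1 and to 8.91 to 22.7 on day 7, with the highest sum in the first S_1 library. On day 1 the leaf sum exceeded the root sum in every library except the second of S_1. On day 7 it was below the root sum in every library. The 2 lists hold different genes, so their sums do not give shares of tissue. Root markers also varied between groups, such as the high-affinity nitrate transporter 2.1 gene LOC104899765. Its mean was 30.8 FPKM in CK_7, 0.0705 in CK_1, 0.0795 in S_1 and 0.170 in S_7.

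SS was dominated by LOC104901675, whose mean of 482 FPKM over all libraries exceeded that of 99.7% of all entries. SBSS1 followed at 58.9 FPKM, and the others stayed near 5 (5.65 for LOC104891266 and 4.76 for the joined entry). In CK_1 the SPP gene LOC104893197 (24.6 to 33.9 FPKM) overlapped SBSS1 (30.6 to 44.8 FPKM), and SBSPS1, LOC104907189 and LOC104891266 lay next to each other between 5.16 and 12.1 FPKM. LOC104909043 was lowest there at 1.49 to 2.47 FPKM, overlapping only the joined entry (2.33 to 3.26 FPKM). In S_7 the order was different, with LOC104893197 (44.7 to 52.5 FPKM) just above SBSS1 (37.6 to 44.2 FPKM), and LOC104909043 (9.35 to 10.1 FPKM) level with SBSPS1 (9.69 to 11.6 FPKM).

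**Figure D1:**
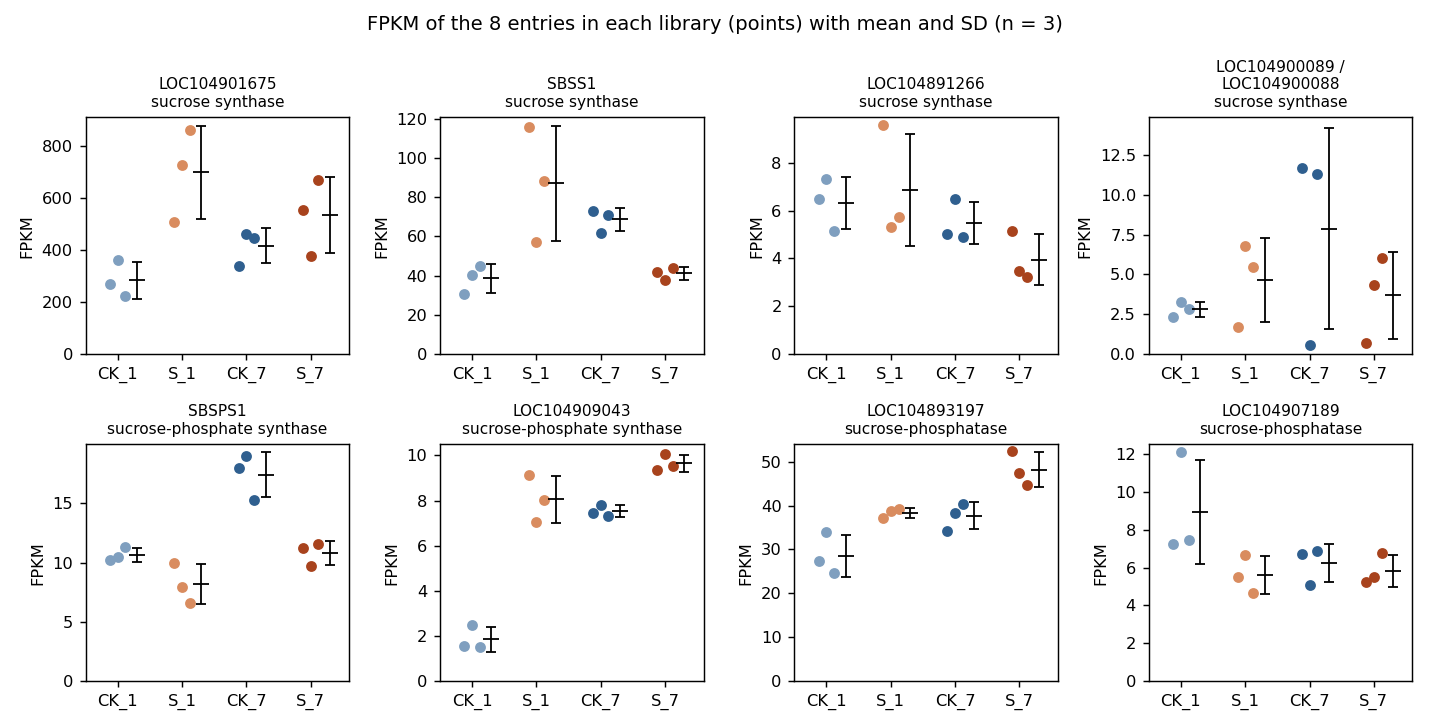
FPKM (vertical axes, linear, from 0) of each entry in the 12 libraries by group, with the mean and SD of 3 libraries in black. LOC104909043 was lowest in CK_1 and high in the 3 other groups, and the SBSS1 libraries of S_1 lay above CK_1 while those of S_7 lay below CK_7.

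Expression was compared with limma on log2(FPKM + 1), and a gene was called a DEG when the unadjusted P was under 0.05 and the log2 fold change above 1 or below -1. These thresholds are those of the original methods, which applied them with Ballgown, so the calls here need not match the original DEGs. The adjusted p-values given beside it are from limma with Benjamini-Hochberg adjustment over all genes tested. With 3 libraries against 3, an exact permutation test cannot give a p below 0.1, and a fold change on this scale is smaller than the ratio of FPKM for low genes. On day 1, 3 of the 8 entries were called, all upregulated by salt, where 5.99% of the 27073 genes tested were called and 3.44% were upregulated. They were the SS genes LOC104901675 and SBSS1 and the SPS gene LOC104909043, and none of them had an adjusted p under 0.05, beside 0.691% of all genes that kept the call with it. This count of 0 depended on the settings, since the adjusted p of LOC104909043 was 0.0508 and became 0.0419 with a pseudocount of 0.1, 0.0251 over genes with a mean FPKM of 1 or more, 0.0297 with median ratio scaling and 0.000652 with all 12 libraries in 1 fit. It was 0.0936 without moderation of the variance and 0.0612 to 0.170 without single libraries. In the fit of 12 libraries SBSS1 also had an adjusted p under 0.05 (0.0267). The median log2 fold change of the 8 entries was 0.43, beside 0.00087 over all genes tested. All 8 entries had a mean of at least 1 FPKM, as had 17146 of the 28320 entries. The shares and medians over all genes tested are therefore not those of equally expressed genes.

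The main SS gene, LOC104901675, had FPKM values of 269.7, 361 and 221 in CK_1 and of 506, 726 and 859 in S_1. All S_1 libraries lay above all CK_1 libraries. Its expression was upregulated 2.45-fold by the ratio of means, with a log2 fold change of 1.29 (standard error 0.38, adjusted p = 0.193). Without the third CK_1 library the log2 fold change of 1.12 missed the P criterion. On day 7 it had 338, 462 and 446 FPKM in CK_7 and 553, 377 and 667 in S_7, and the groups overlapped. The log2 fold change of 0.33 had a 95% interval of -0.46 to 1.13 (adjusted p = 0.624), which includes the fold change criterion. The salt effect on day 7 minus that on day 1 was -0.96 on the log2 scale (95% interval -2.02 to 0.11, limma adjusted p = 0.397), so a difference between the days was not detected for this gene.

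SBSS1, the other highly expressed SS gene, lay on opposite sides of CK on the 2 days. Its FPKM was 30.6, 40.2 and 44.8 in CK_1 and 115.7, 57.0 and 88.6 in S_1, and on day 7 it was 73.2, 62.0 and 71.1 in CK_7 and 41.8, 37.6 and 44.2 in S_7. The salt libraries were all higher than CK on day 1 and all lower on day 7. On day 1 it was upregulated with a log2 fold change of 1.11 (standard error 0.30, adjusted p = 0.170), but the change missed the fold change criterion without the first CK_1 library (0.96) or without the first S_1 library (0.88). That S_1 library had the highest SBSS1 value and also the highest sum of the leaf markers, whose part in the result was not tested. On day 7 the log2 fold change of -0.72 (standard error 0.11, adjusted p = 0.0508) did not reach the fold change criterion. This adjusted p was 0.0447 over genes with a mean FPKM of 1 or more and 0.0453 with median ratio scaling. With a pseudocount of 0.1 it was 0.0554, without moderation of the variance 0.0860, and without single libraries 0.0970 to 0.146. The lower side on day 7 came with a higher control. From CK_1 to CK_7 the mean of SBSS1 rose from 38.6 to 68.8 FPKM, without overlap. This log2 fold change of 0.83 (limma adjusted p = 0.0493) was also under the fold change criterion, and it was 0.63 with median ratio scaling. The S_7 libraries lay within the range of CK_1.

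Whether salt acted differently on SBSS1 on the 2 days was tested directly, in 1 limma fit of the 12 libraries. The day 7 effect minus the day 1 effect was -1.84 on the log2 scale (standard error 0.34, adjusted p = 0.0309), and 1.76% of the 28320 genes had an adjusted p under 0.05 in this test. The value ranged from -2.11 to -1.61 when each library was left out in turn, but the adjusted p was above 0.05 in 8 of the 12 cases, and at most 0.0763. These were the cases without the first CK_1 library, the third S_1 library, or any single library of CK_7 or S_7. Between S_1 and S_7, SBSS1 was downregulated by a log2 fold change of -1.01 (standard error 0.27, adjusted p = 0.106). It was the only member called in that comparison, where 6.78% of the 27398 genes tested were called and 2.66% were lower in S_7. Leaving out the first S_1 library (-0.77), the third S_1 library (-0.97) or the second S_7 library (-0.94) brought the change below the criterion.

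The remaining SS entries were low and were called in no comparison. LOC104891266, described as sucrose synthase 7, had 6.50, 7.32 and 5.16 FPKM in CK_1 and 9.56, 5.31 and 5.74 in S_1, with overlapping groups. In S_7 it had 5.16, 3.47 and 3.20 FPKM, below the 3 S_1 libraries (log2 fold change -0.65, adjusted p = 0.234). The joined entry LOC104900089/LOC104900088 varied most, from 0.587 to 11.7 FPKM within CK_7 and from 0.682 to 6.03 FPKM within S_7. Without the second CK_7 library, its increase from CK_1 to CK_7 met the criteria with a log2 fold change of 1.73, against 0.74 (adjusted p = 0.630) with all libraries.

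Genes of low-oxygen metabolism, for which SS is a known companion in maize and Arabidopsis, were examined in the same libraries. The list held 6 genes for alcohol dehydrogenase, pyruvate decarboxylase and non-symbiotic hemoglobin, after 2 cinnamyl alcohol dehydrogenase genes taken by the same search word were set apart. Their summed FPKM was 62.3, 76.9 and 124 in CK_1 and 322, 577 and 1383 in S_1, so that the salt libraries were all higher. It was 588, 743 and 789 in CK_7 and 977, 428 and 1302 in S_7, where the groups overlapped. On day 1, 4 of the 6 genes were called and all were upregulated (beside 3.44% of all genes upregulated), and on day 7 it was 1 of 6 (beside 5.08% of all genes called). Between the controls 5 of the 6 were upregulated, beside 10.2% of all genes called in either direction. Of these 5, 4 had an adjusted p under 0.05, beside 5.63% of all genes called with it. For salt on day 1, none of the 6 had an adjusted p under 0.05 in limma, beside 0.691% of all genes called with it. None of the 6 was listed at 0 in every library. The part of these genes in the SS result was not tested.

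Of the SPS genes, LOC104909043 was called on day 1 and SBSPS1 was not. LOC104909043 had FPKM values of 1.55, 2.47 and 1.49 in CK_1 and of 9.13, 7.05 and 8.03 in S_1, and the groups were far apart. It was upregulated 4.39-fold by the ratio of means (log2 fold change 1.69, standard error 0.23, adjusted p = 0.0508). It was called without any single library, with a log2 fold change of 1.60 to 1.84. On day 7 it had 7.46, 7.82 and 7.33 FPKM in CK_7 and 9.35, 10.1 and 9.54 in S_7, so the S_7 libraries were again all higher but by a log2 fold change of 0.32 (standard error 0.10, adjusted p = 0.168), which did not meet the criterion.

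The smaller difference on day 7 came with a higher control. From CK_1 to CK_7, LOC104909043 was upregulated 4.10-fold by the ratio of means, with a log2 fold change of 1.61 (standard error 0.21, adjusted p = 0.0176). It was the only member called between the controls, where 10.2% of the 27402 genes tested were called, or 5.63% with an adjusted p under 0.05. The low-oxygen genes above were also higher in CK_7, with sums of 588 to 789 FPKM against 62.3 to 124 in CK_1. The leaf markers were lower in CK_7, with sums of 10.1 to 22.7 FPKM against 54.6 to 144.9 in CK_1. The part of either list in this result was not tested. With median ratio scaling the log2 fold change of LOC104909043 between the controls was 1.46. The increase of LOC104909043 met the criteria without any single library. However, its adjusted p was 0.0625 to 0.0756 without the first CK_1 library or any one of the CK_7 libraries. Between S_1 and S_7 the log2 fold change was 0.24 (95% interval -0.09 to 0.57), and -0.01 when libraries were scaled by median ratios. The salt effect on day 7 minus that on day 1 was -1.37 on the log2 scale (standard error 0.22, adjusted p = 0.0177). It stayed at an adjusted p under 0.05 without any single library (-1.52 to -1.28). Both tests share the CK_1 libraries with the day 1 comparison.

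SBSPS1, the other SPS gene, had 10.2, 10.5 and 11.3 FPKM in CK_1 and 9.97, 7.92 and 6.62 in S_1, and 18.0, 19.0 and 15.3 FPKM in CK_7 and 11.2, 9.69 and 11.6 in S_7. On each day every salt library was lower than every CK library, as it was, in either direction, for 21.8% of all genes tested on day 1 and 26.4% on day 7. The log2 fold change was -0.36 on day 1 (adjusted p = 0.418) and -0.64 on day 7 (standard error 0.12, adjusted p = 0.0788), and neither met the criteria. Between CK_1 and CK_7 it was 0.66 (adjusted p = 0.0440), also under the fold change criterion, and 0.46 with median ratio scaling. The salt effects of the days differed by -0.28 (95% interval -0.74 to 0.19, limma adjusted p = 0.604).

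Neither SPP gene was called in any comparison. LOC104893197, the more abundant, had 27.3, 33.9 and 24.6 FPKM in CK_1 and 37.2, 38.7 and 39.2 in S_1, and 34.3, 38.4 and 40.4 FPKM in CK_7 and 52.5, 47.5 and 44.7 in S_7. Salt values exceeded every CK value on both days, by log2 fold changes of 0.42 (95% interval 0.03 to 0.81, adjusted p = 0.287) and 0.35 (95% interval 0.08 to 0.62, adjusted p = 0.179). These intervals exclude a change as large as the criterion. LOC104907189 had 7.26, 12.1 and 7.47 FPKM in CK_1 against 5.52, 6.66 and 4.65 in S_1 (log2 fold change -0.57, adjusted p = 0.356), and on day 7 its groups overlapped (log2 fold change -0.08, 95% interval -0.50 to 0.35).

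On day 7, limma called 0 of the 8 entries, where 5.08% of the 27411 genes tested were called. A linear model without moderation of the variance also called 0. An unadjusted P under 0.05 was found in 4 of the 8 (SBSS1, SBSPS1, LOC104909043 and LOC104893197), beside 18.9% of all genes tested, and SBSS1 and SBSPS1 were the lower ones under salt. The median log2 fold change of the 8 entries was -0.24, beside 0.02 over all genes tested. Fewer cells with a transcript and less transcript per cell cannot be told apart in roots.

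**Figure D2:**
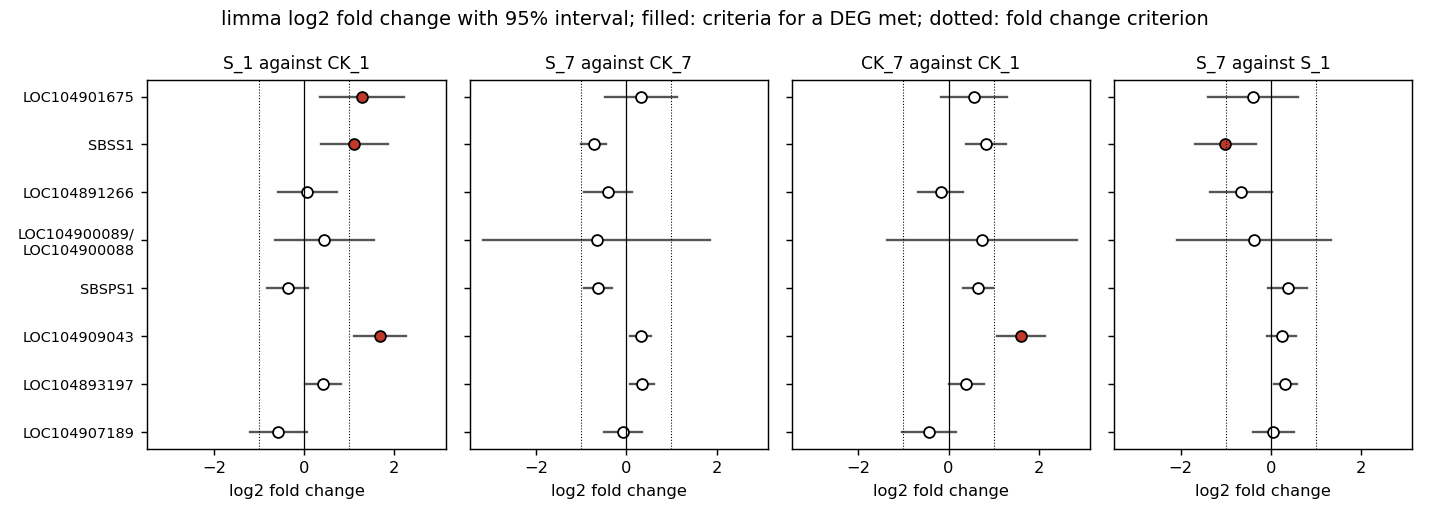
The log2 fold change (horizontal axes, limma on log2(FPKM + 1)) of each entry in the 4 comparisons, with 95% intervals as lines. Filled points met the criteria for a DEG, and dotted lines mark log2 fold changes of -1 and 1. The called entries are 3 on day 1, 0 on day 7, 1 between the controls and 1 between the salt groups.

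Summed over the 4 entries, SS reached 309, 412 and 274 FPKM in CK_1 and 633, 795 and 959 in S_1, and on day 7 428, 531 and 533 in CK_7 and 600.5, 422 and 720.4 in S_7. These sums are given as a description and were not tested. LOC104901675 held 85.2% ± 3.9 (SD, n = 3) of the SS sum in CK_1 and 86.9% ± 6.1 in S_1. On day 7 its share was 83.2% ± 4.0 in CK_7 and 91.3% ± 1.8 in S_7. The S_7 libraries (89.2% to 92.6%) therefore lay above those of CK_7 (79.0% to 87.0%), and the share of SBSS1 was 7.34% ± 1.43 in S_7 and 14.04% ± 2.79 in CK_7.

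The composition of SPS differed between salt and CK on both days. LOC104909043 held 14.7% ± 3.9 (SD, n = 3) of the summed SPS FPKM in CK_1 and 49.9% ± 4.3 in S_1, and 30.3% ± 1.8 in CK_7 and 47.2% ± 3.2 in S_7. Its level was 0.173 times that of SBSPS1 in CK_1 (0.132 to 0.236) and 1.01 times in S_1 (0.889 to 1.21). On day 7 the ratio was 0.435 (0.411 to 0.480) in CK_7 and 0.899 (0.825 to 1.04) in S_7. The summed SPS level itself was 11.7 to 12.9 FPKM in CK_1 and 14.7 to 19.1 FPKM in S_1, and 22.6 to 26.8 FPKM in CK_7 and 19.7 to 21.1 FPKM in S_7. It was thus higher than CK in all salt libraries on day 1 and lower in all on day 7. In SPP, LOC104893197 held 76.4% ± 2.7 of the sum in CK_1 and 85.8% to 89.1% on average in the other groups.

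**Figure D3:**
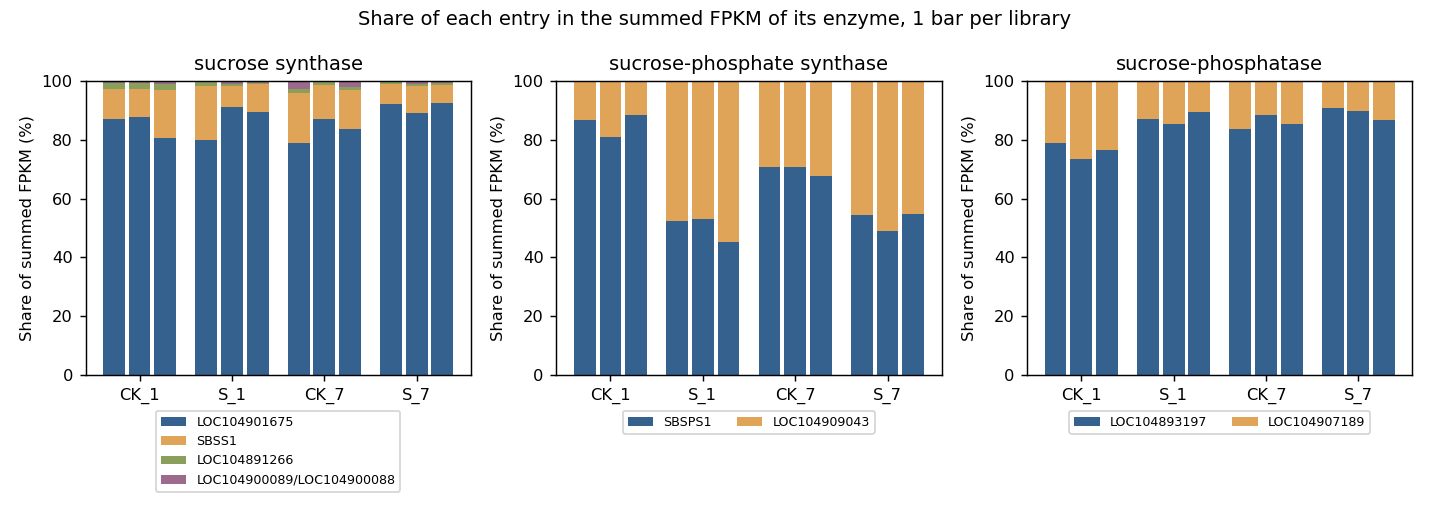
Share (percent) of each entry in the summed FPKM of SS, SPS and SPP, with 1 bar for each library and 3 bars per group. In SPS the share of LOC104909043 was 11.6% to 19.1% in CK_1, 29.1% to 32.4% in CK_7 and 45.2% to 54.8% in the salt groups.

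Over the 12 libraries, which fall into 4 groups, the genes most like LOC104901675 were compared by Pearson's correlation of log2(FPKM + 1) among the 17146 genes whose mean FPKM was 1 or more. The highest were a probable cytosolic oligopeptidase A gene (LOC104897801, r = 0.942), a glycine-rich cell wall structural protein gene (LOC104885162, 0.937), a pentatricopeptide repeat gene entry (LOC104904660/LOC104904659, 0.929), the transcription factor gene MYB39 (LOC104887993, 0.921) and a probable inactive receptor kinase gene (LOC104888306, 0.915). For SBSPS1 the first were a mannose/glucose-specific lectin gene (LOC104887318, r = 0.949), an inactive receptor-like kinase gene (LOC104906274, 0.948) and an entry without a name (0.937), followed by LOC104889227 (0.935) and LOC104908138 (0.935). For the SPP gene LOC104893197 they were an entry without a name (r = 0.978), a pentatricopeptide repeat gene (LOC104894832, 0.977), a CDC48 homolog (LOC104901385, 0.976), a proteasome beta subunit gene (LOC104897602, 0.972) and LOC104899397 (0.970). Among the members, the closest pair was LOC104909043 and LOC104893197 (r = 0.872), while LOC104901675 and SBSS1 had r = 0.442. Shared day and treatment enter these values, and they are a description.

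Genes of neighbouring steps were taken by description: UDP-glucose pyrophosphorylase, sugar kinases, hexose phosphate enzymes, neutral invertases, sucrose and SWEET transporters, and the SnRK1 and 14-3-3 proteins that act on SPS. The 6-phosphofructokinases, 6 in number, entered through the word fructokinase, and vacuolar and cell wall invertases carry other names and were not included. Of these 61 genes, 58 were tested on day 1, when 3 were upregulated and 2 downregulated (8.62%, beside 5.99% of all genes), and 60 on day 7, when 2 were upregulated and 2 downregulated (6.67%, beside 5.08%). On both days no fructokinase, invertase, sucrose transport or 14-3-3 gene was called.

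The SWEET7 gene LOC104908211, of a family of transporters that let sugars cross membranes in both directions, was the only gene of this list with an adjusted p under 0.05 for salt. It had 334, 279.7 and 254 FPKM in CK_1 and 45.2, 42.9 and 50.2 in S_1, and 598, 429.7 and 422 FPKM in CK_7 and 27.7, 42.5 and 24.99 in S_7. It was downregulated on day 1 by a log2 fold change of -2.62 (standard error 0.18, adjusted p = 0.0147) and on day 7 with -3.91 (standard error 0.26, adjusted p = 0.00793). SWEET1 (LOC104895111) had a mean of 12.5 FPKM in CK_1 and 46.5 in S_1 (log2 fold change 1.79, adjusted p = 0.141), and 12.2 in CK_7 and 5.88 in S_7 (-0.88, adjusted p = 0.196). It met the criteria for a DEG on day 1 but not on day 7.

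UDP-glucose pyrophosphorylase (LOC104907700), which interconverts UDP-glucose, the product of SS and substrate of SPS, with glucose phosphate, had 23.9, 31.8 and 18.0 FPKM in CK_1 and 41.0, 55.0 and 47.6 in S_1. Its log2 fold change of 0.96 (adjusted p = 0.149) lay just under the criterion. On day 7 the groups overlapped, with means of 100.9 FPKM in CK_7 and 86.5 in S_7. The probable fructokinase-7 gene (LOC104906399), for an enzyme that phosphorylates fructose released by SS, had means of 10.6 and 20.8 FPKM on day 1 and of 11.3 and 22.7 on day 7 under CK and salt, without overlap on either day. Its log2 fold changes of 0.90 (adjusted p = 0.0695) and 0.95 (adjusted p = 0.0656) were under the criterion. The SWEET gene described as NEC1 (LOC104890419) stayed under 1 FPKM in every library.

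**Figure D4:**
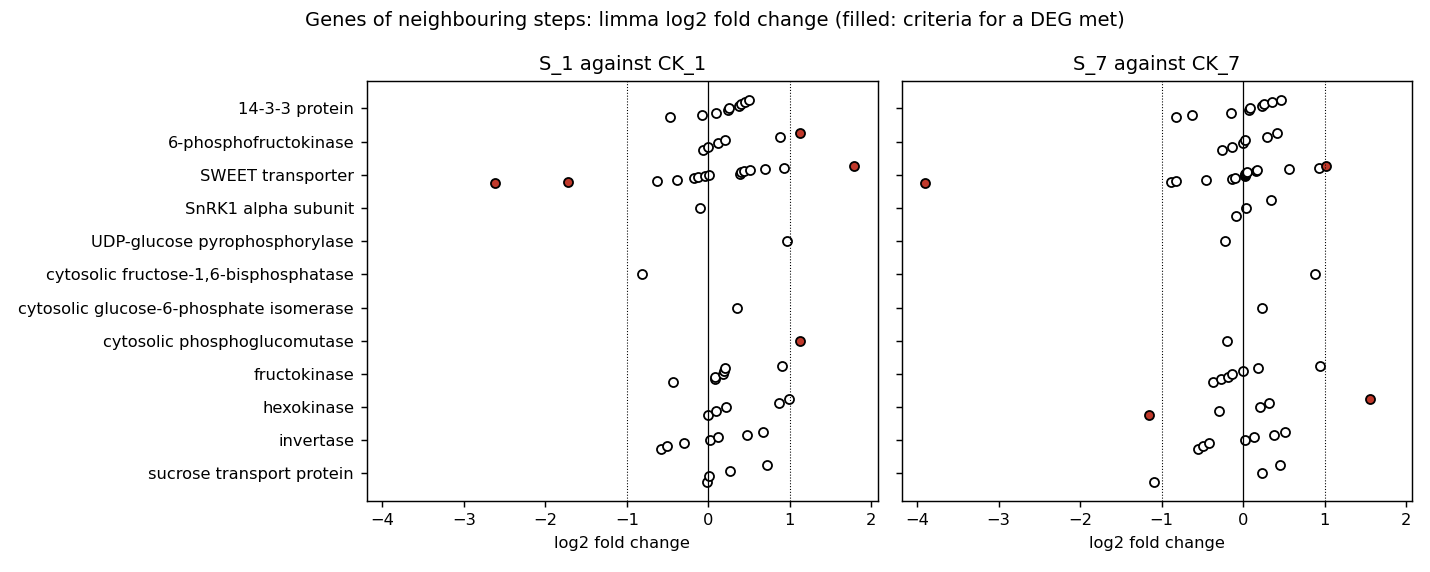
The log2 fold change (horizontal axes, limma on log2(FPKM + 1)) of each tested gene of the neighbouring steps on day 1 and day 7, grouped by step. Filled points met the criteria for a DEG, 5 on day 1 and 4 on day 7, and the lowest on both days is SWEET7 at -2.62 and -3.91.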

How the data were processed

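The authors aligned paired reads of polyadenylated root RNA with HISAT (HISAT2 2.0 in the processing notes) to the NCBI sugar beet genome, assembled transcripts with StringTie (1.3.0) and deposited 1 FPKM value per gene and library, already divided by transcript length and mapped reads. The version of the sugar beet genome is not given in the sources used here, where the notes list only a mouse build (mm8). Groups and replicate numbers came from the labels, all 12 libraries were used, and metabolite data were not analysed here.

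The log2(FPKM + 1) values were fitted with limma (version 3.58.1 under R 4.3.3), letting the variance follow the mean level, over genes above 0 in at least 1 of the 6 libraries compared. The interaction of salt and day was fitted over all 12. Tests are two-sided, and the fits were tested on simulated data with planted changes. Reads of near-identical SS genes may be shared between entries in a way that FPKM does not show.

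Members and gene lists were chosen with earlier results of these data known. Every member with a group mean of at least 1 FPKM is named, which was all 8. Of the neighbouring steps, genes with an adjusted p under 0.05 on either day, and the 5 with the smallest P on day 1, are named. All 9 gene names of the members were matched in the RefSeq table of assembly EL10.2, which was used for neighbours only. Alternatives were an adjusted p, a pseudocount of 0.1, a mean FPKM of at least 1, median ratio scaling, an unmoderated linear model, the ratio of mean FPKM, all libraries in 1 fit, a replicate block and leaving out each library.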

Additional observations from a re-analysis of the deposited data

Results flagged for a closer look

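The salt effect on SBSS1 differed between the days by -1.84 on the log2 scale (limma adjusted p = 0.0309). All 3 salt libraries lay above CK on day 1 and all 3 below CK on day 7, when CK itself was higher. The adjusted p of this difference was above 0.05 in 8 of the 12 fits that left out 1 library, and at most 0.0763. The salt effect on LOC104909043 differed by -1.37 (limma adjusted p = 0.0177), with salt above CK in all libraries of both days, and its adjusted p was 0.00624 to 0.0456 without single libraries. These 2 of the 8 entries were singled out because the test of the difference between the days had an adjusted p under 0.05. Groups of 3 libraries were too small to look for single outlying samples.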

How the results depend on the processing

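The members called on day 1 were the same 3 genes with a pseudocount of 0.1, a mean FPKM of at least 1, median ratio scaling, the linear model without moderation, the ratio of mean FPKM, all 12 libraries in 1 fit and the replicate block, and 2 or 3 without single libraries. With an adjusted p under 0.05 and the other settings as reported, the count was 0 on day 1, beside 0.691% of all genes tested. Between S_1 and S_7 the only member called, SBSS1, had a limma adjusted p of 0.106. On day 7 the number called was 0 under every alternative. Without single libraries it was 1 or 2 between the controls, 0 or 1 between the salt groups and 1 or 2 for the difference between the days. The last became 0 with the replicate block (adjusted p = 0.0584 for SBSS1 and 0.0526 for LOC104909043), which changed no other call, although the adjusted p of LOC104909043 between the controls became 0.0814 with it. Same-numbered libraries did not deviate together (correlations of deviations from -0.0938 to 0.102, best with their own number in 4 of 12), so the numbers do not pair them. Signs turned only for changes that were not called: between S_1 and S_7, median ratio scaling gave -0.19 for LOC104907189 and -0.014 for LOC104909043, and without single libraries LOC104907189 ranged from -0.057 to 0.16 and the joined entry LOC104900089/LOC104900088 from -0.84 to 0.25. LOC104891266 ranged from -0.16 to 0.21 on day 1, and the difference between the days for LOC104893197 from -0.20 to 0.024. FPKM values without counts limit what can be said of the low entries.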

Other observations

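Several genes of single steps next to SPS and SS are named here after their values were seen. The cytosolic fructose-1,6-bisphosphatase gene LOC104895737, which supplies fructose phosphate for SPS, had 139.7, 109.7 and 193 FPKM in CK_1 and 5.68, 5.48 and 6.52 in CK_7 (log2 fold change -4.39, limma adjusted p = 0.00246). Under salt it had 107, 66.7 and 74.8 FPKM in S_1 and 11.9, 7.41 and 17.5 in S_7 (log2 fold change -2.70, limma adjusted p = 0.0306). The leaf marker sums were also lower on day 7, at 10.1 to 22.7 FPKM in CK_7 against 54.6 to 144.9 in CK_1. Under salt they were 8.91 to 16.7 FPKM in S_7 against 37.2 to 264.0 in S_1. The part of the leaf markers in these changes was not tested. The cytosolic phosphoglucomutase gene LOC104896820 had 18.0, 27.4 and 13.1 FPKM in CK_1, 33.0, 50.0 and 43.8 in S_1, and 71.5 to 72.6 in CK_7 (limma adjusted p = 0.0199 between the controls and 0.170 for salt on day 1). It met the criteria for a DEG in both comparisons, with log2 fold changes of 1.89 between the controls and 1.12 for salt. UDP-glucose pyrophosphorylase (LOC104907700) was also upregulated between the controls, from a mean of 24.6 to 100.9 FPKM (log2 fold change 2.02, limma adjusted p = 0.0142). As for the SPS gene LOC104909043, the S_1 level of both genes lay above CK_1. For phosphoglucomutase and UDP-glucose pyrophosphorylase it stayed below every library of CK_7, whereas for LOC104909043 the S_1 libraries (7.05 to 9.13 FPKM) overlapped those of CK_7 (7.33 to 7.82 FPKM). The cytosolic glucose-6-phosphate isomerase gene LOC104893126, also of a single step, did not share this pattern. It had 32.0, 43.6 and 28.7 FPKM in CK_1 and 48.1, 43.2 and 41.1 in S_1, with overlapping groups. Between the controls its log2 fold change was 0.50 (limma adjusted p = 0.157).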
